A study of Rattus norvegicus with 10 samples.

Results

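The genes that serve nitric oxide production were followed in cultured rat microglia, the resident macrophages of the brain, with and without interferon gamma (IFN-gamma). They were Nos2, Gch1, Gchfr, Pts, Ass1 and Arg1, 6 of the 4736 genes that the arrays measured with a probe set of 1 symbol. All 12 probe sets annotated with 1 of these symbols alone were taken (4 for Nos2, 4 for Gch1 and 1 for each of the others) of 8740 tested. They were chosen by gene name, with earlier results of these data known. The question was whether IFN-gamma given alone raised the transcripts of this machinery.

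The control group came from 5 independent primary cultures (numbered 1, 2, 3, 5 and 6) that received fresh medium only. The treated group came from 3 cultures that received 100 U/ml IFN-gamma in fresh medium for 16 hours, and IFN-gamma culture 1 was hybridised to 3 technical arrays (1a, 1b and 1c), which gave 10 arrays in all. All cultures were neonatal rat brain tissue grown in 15% fetal calf serum, each flask holding a single brain, and were plated on day 15 at 100000 cells per dish. The labels used here name no strain, sex or genotype and no second stimulus such as endotoxin.

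Nitric oxide is made from arginine by nitric oxide synthases. Macrophages use the inducible form, NOS2, which is controlled mainly through its transcription and needs tetrahydrobiopterin as a cofactor. GTP cyclohydrolase 1 (Gch1) and 6-pyruvoyltetrahydropterin synthase (Pts) carry out successive steps of tetrahydrobiopterin synthesis, and Gchfr encodes the feedback regulator of Gch1. Argininosuccinate synthase (Ass1) takes part in rebuilding arginine from citrulline, the other product of the synthase, whereas arginase 1 (Arg1) removes arginine. In rodent macrophages IFN-gamma is known to act on Nos2 together with microbial products or tumour necrosis factor.

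None of the 12 probe sets changed with IFN-gamma past the threshold. Levels are given as normalised log2(signal + 16), a scale on which a signal of 0 lies at 4 and the median over all tested probe sets and cultures was 4.98. A difference on this scale understates the fold change of a dim transcript. With limma, at a threshold of 0.05 on p-values adjusted by Benjamini-Hochberg over all 8740, 0 of 12 were higher and 0 lower, where 0.927% of all probe sets were higher and 0.606% lower (81 and 53 probe sets, a balance that became 100 and 27 with array medians subtracted and 38 and 1 with no scaling between arrays). At an unadjusted p under 0.05, 2 of 12 were higher, against 5.74% of all probe sets. The median difference over the 12 was 0.25 (range -0.35 to 0.75), beside -0.02 over all probe sets, and 9 of 12 were positive, against 47.3% of all. The 12 stand for only 6 genes, with 4 probe sets each for Nos2 and Gch1, so they are not separate members. The deposited signals were low: 80 of 120 member signals were at or below 16, 114 were below 50, and 2 exceeded 100. No detection calls were used here, so the levels near 4 are not called present or absent.

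**Figure D1:**
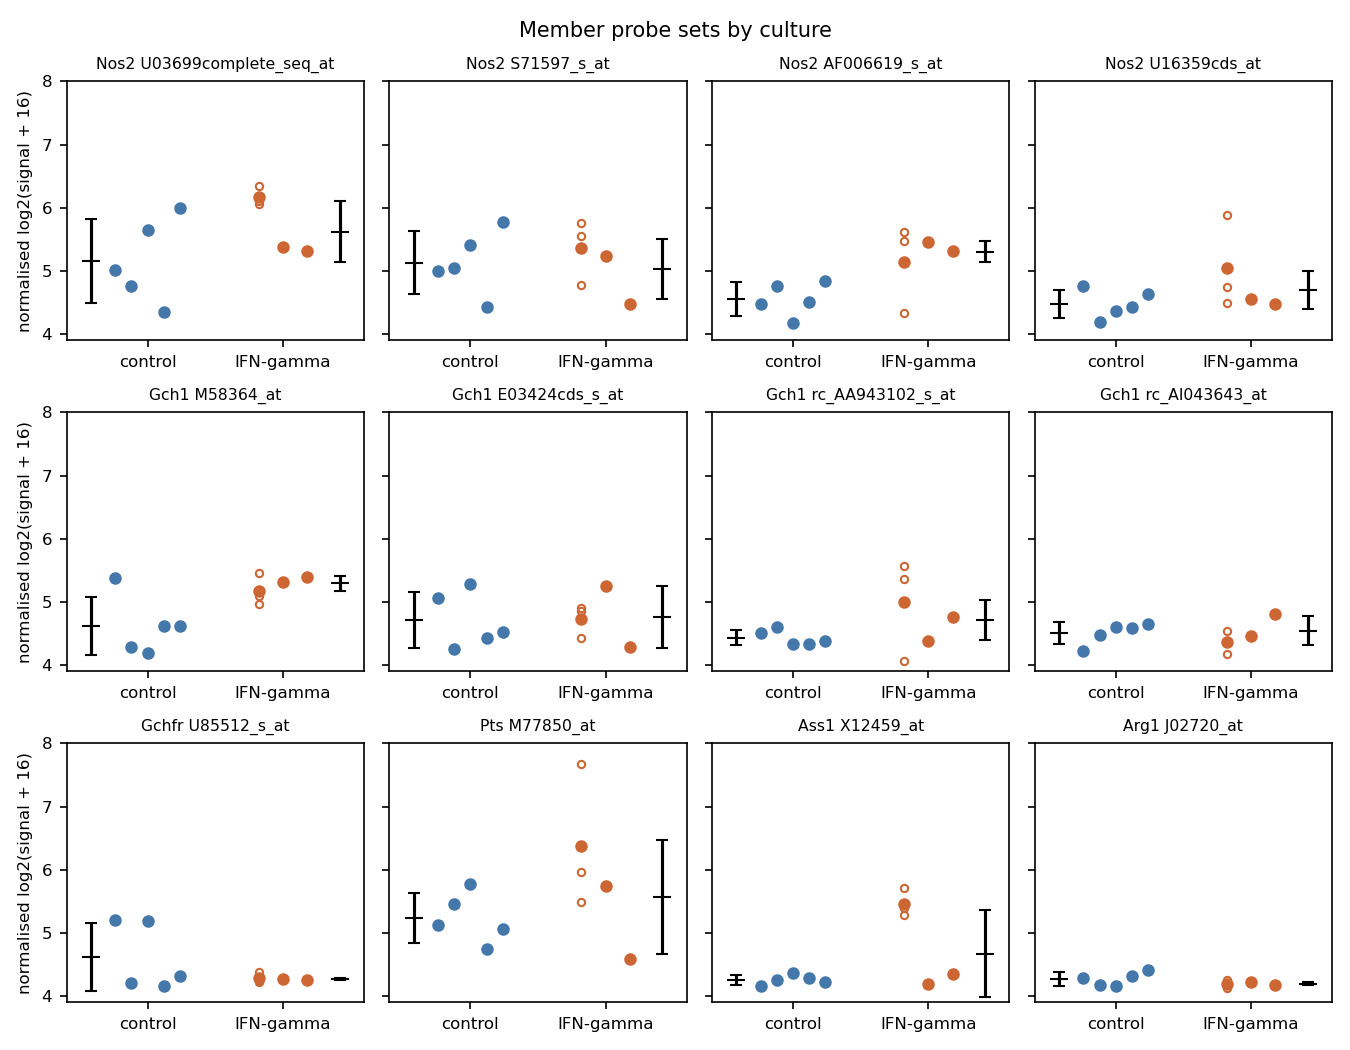
Normalised log2(signal + 16) of each of the 12 probe sets, with filled points for the 5 control cultures (blue, in the order 1, 2, 3, 5, 6) and the 3 IFN-gamma cultures (orange), open points for the technical arrays of IFN-gamma culture 1, and black bars for mean ± SD. Only at the Nos2 probe set AF006619_s_at do all 3 IFN-gamma cultures (5.14 to 5.46) lie above all 5 controls (4.17 to 4.85), and at Ass1 culture 1 alone stands high.

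The arrays themselves were of uneven brightness. The median deposited signal ran from 7.4 in control culture 3 to 23.7 on IFN-gamma array 1b and did not differ between the groups beyond the spread of cultures (exact permutation test, two-sided, p = 0.518). For the 3' to 5' ratios of array control transcripts the exact permutation test gave p = 0.25 (GAPDH) and p = 0.518 (beta-actin). Of the microglial marker list 7 of 12 genes were measured, 2 were higher (C1qb and C1qc) and 0 lower. For fibroblast and meningeal markers, 0 of 5 passed by the brightest probe set of each gene. The differences were -0.59 for Lum, -0.71 for Col1a2 and -0.55 for Col3a1 (limma adjusted p = 0.338, 0.339 and 0.425). Dcn had -0.05, and the brightest probe set of Col1a1, a fibrillar collagen gene, had -2.7e-06. Of its 3 other probe sets 1 passed, with a fall of 1.20 on the log2 scale (M27207mRNA_s_at, limma adjusted p = 0.0239). By the brightest probe sets, the summed signal of the 5 markers was 158 to 225 in the controls and 118 to 142 with IFN-gamma. Of the astrocyte markers 8 of 9 were measured and 1 passed. This was Glul, the glutamine synthetase gene that macrophages also express, which fell 3.15-fold at its brightest probe set (limma adjusted p = 0.00301). Its 3 other probe sets had -0.586, -0.998 and -0.765 and did not pass (limma adjusted p = 0.383, 0.200 and 0.179). The call was lost in 4 of 22 alternative settings. These were a pseudocount of 1, no scaling between arrays, array medians subtracted and the culture number as a replicate block. The other 7 astrocyte markers summed to 106 to 187 in the controls and 116 to 139 with IFN-gamma. The neuronal, oligodendrocyte and endothelial lists had 0 members past the threshold. Of the neuronal genes, Syt1 lay near the floor in all cultures. Snap25 and Gap43 had control means of 5.96 and 5.75, above the median of 4.98 over all tested probe sets. Nefm (4.89) and Nefl (4.66) lay below that median in the controls. The part of these other cells in the values below was not tested. In RNA from whole cultures, fewer cells of a type and less RNA per cell cannot be told apart.

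Nos2, the inducible nitric oxide synthase gene, was read by 4 probe sets that did not move alike. At AF006619_s_at the deposited signals of control cultures 1, 2, 3, 5 and 6 were 7.7, 8.4, 1.3, 8.1 and 15.1. With IFN-gamma they were 3.2, 52.5 and 20.8 on arrays 1a, 1b and 1c of culture 1, 30.3 in culture 2 and 32.1 in culture 3. The IFN-gamma cultures were all brighter than the controls, except that technical array 1a lay within the control range. After normalisation the control level of 4.55 ± 0.264 (SD, n = 5) stood against 5.31 ± 0.16 (SD, n = 3) in the treated cultures. The difference was 0.75 ± 0.193 (SE), or 1.68-fold with a 95% interval of 1.25 to 2.28, and did not pass (unadjusted p = 0.00345, limma adjusted p = 0.129). This was the member with the smallest p, at rank 231 of 8740.

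Complete separation of this kind, with the 3 IFN-gamma cultures all above the 5 controls, was seen in 1 of the 12 probe sets and in 4.28% of all those tested. The size of the difference depended on the treatment of dim signals and on 1 technical array. It was 1.57 with a pseudocount of 1 and 0.30 with a pseudocount of 64, and 0.48 when array 1a alone stood for culture 1 (adjusted p = 0.636). With arrays 1b and 1c alone, a choice made after the values were seen, it was 0.89 (adjusted p = 0.061). Over 21 other settings the adjusted p ran from 0.0561 to 0.636, so the probe set passed in none of them.

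The brightest of the 4 Nos2 probe sets, U03699complete_seq_at, gave signals of 21.2, 8.4, 16.4, 5.1 and 58.2 in control cultures 1, 2, 3, 5 and 6. With IFN-gamma it gave 39.5, 118.2 and 36.5 on arrays 1a, 1b and 1c, 27.3 in culture 2 and 32.3 in culture 3. The groups overlapped, since control cultures 3 and 6 lay above IFN-gamma cultures 2 and 3 after normalisation. The level was 5.15 ± 0.665 (SD, n = 5) against 5.62 ± 0.478 (SD, n = 3), a difference of 0.47 (95% interval -0.39 to 1.33, adjusted p = 0.798).

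The remaining Nos2 probe sets showed no separation either. S71597_s_at had signals from 6.8 (culture 5) to 47.4 (culture 6) in the controls and from 8.5 (culture 3) to 28.5 (array 1a) with IFN-gamma. Its difference was -0.10 (95% interval -0.82 to 0.61, adjusted p = 0.968). U16359cds_at had control signals of 1.8 to 14.6 and IFN-gamma signals of 7.9 to 9.3 on all arrays but 1c, which read 31.3. Its difference was 0.22 (95% interval -0.24 to 0.67, adjusted p = 0.839). The 4 Nos2 probe sets thus ran from -0.10 to 0.75, with intervals that overlap one another. A further 3 probe sets that the annotation pairs with Nos2 and a second symbol were not taken as members, and their differences ran from -0.22 to 0.25. One of them, U48829_s_at, was brighter than any Nos2 member, with a control level of 6.18 ± 0.234 (SD, n = 5). It stood at 6.49, 5.07 and 6.34 in IFN-gamma cultures 1, 2 and 3 (difference -0.22, limma adjusted p = 0.915).

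**Figure D2:**
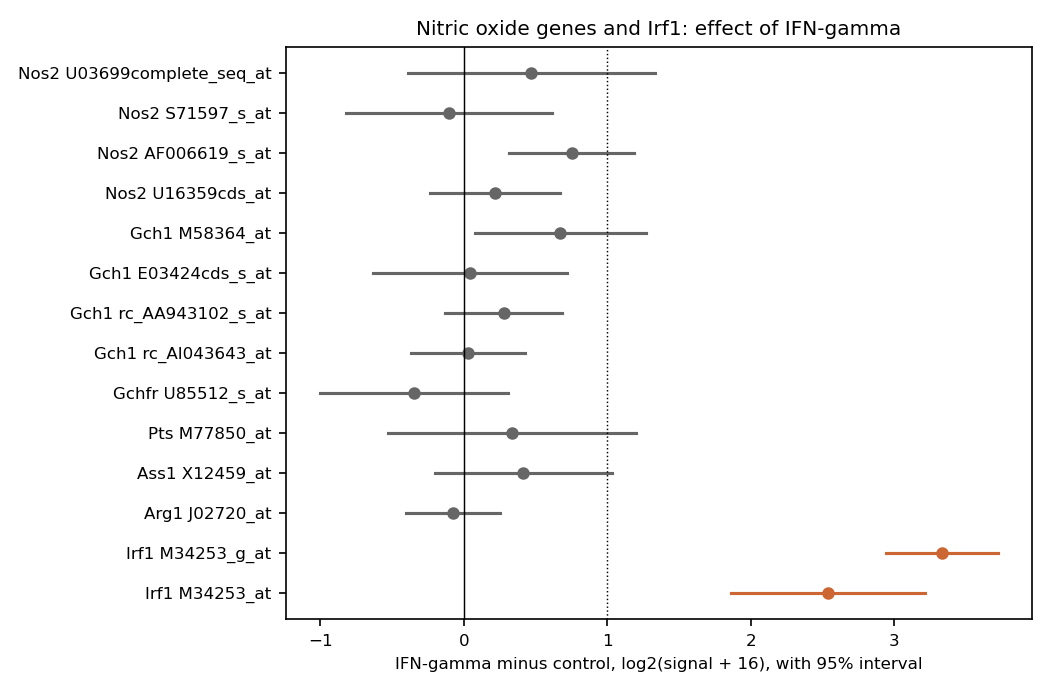
Difference between IFN-gamma and control cultures in normalised log2(signal + 16), with 95% intervals, for the 12 probe sets (grey, none past the threshold) and both probe sets of Irf1 (orange, past it). The solid line marks no change and the dotted line a 2-fold increase on this scale; the members lie between -0.35 and 0.75, and Irf1 lies at 3.33 and 2.54.

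Gch1, the gene of the first and rate-limiting enzyme of tetrahydrobiopterin synthesis, gave the second smallest p of the members at its brightest probe set, M58364_at. The control signals of cultures 1, 2, 3, 5 and 6 were 32.5, 2.7, 1.4, 10 and 10.3. With IFN-gamma they were 13.3, 43 and 10.9 on arrays 1a, 1b and 1c, 25.3 in culture 2 and 35.7 in culture 3. After normalisation all 3 IFN-gamma cultures (5.17, 5.31 and 5.39) lay above control cultures 2, 3, 5 and 6 (4.19 to 4.62), while control culture 1 stood at 5.38. The level was 4.62 ± 0.466 (SD, n = 5) against 5.29 ± 0.113 (SD, n = 3). The difference of 0.67 ± 0.264 (SE), or 1.59-fold with a 95% interval of 1.06 to 2.41, did not pass (unadjusted p = 0.0305, limma adjusted p = 0.383). Without control culture 1 it was 0.86 and still did not pass (adjusted p = 0.0662), and with a pseudocount of 1 it was 1.56 (adjusted p = 0.501).

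The other 3 Gch1 probe sets gave smaller differences. E03424cds_s_at had signals of 2.4 to 22.4 in the controls and 4.1 to 24 with IFN-gamma, and a difference of 0.05 (95% interval -0.63 to 0.72, adjusted p = 0.987). rc_AA943102_s_at had control signals of 2.4 to 8.5. Its IFN-gamma signals were 18.8, 1 and 23.1 on arrays 1a, 1b and 1c, 4.8 in culture 2 and 14.9 in culture 3, so the 3 arrays of a single culture spanned more than the whole control group. Its difference was 0.28 (95% interval -0.13 to 0.69, adjusted p = 0.713). rc_AI043643_at stayed between 2.7 and 15.9 on all 10 arrays, with a difference of 0.03 (95% interval -0.37 to 0.43, adjusted p = 0.986). All 3 of these probe sets changed sign in at least 1 of the settings tried.

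Gchfr, whose product binds GTP cyclohydrolase 1 and inhibits it when tetrahydrobiopterin is plentiful, was read by U85512_s_at. The control signals of cultures 1, 2, 3, 5 and 6 were 26.8, 1.9, 9.9, 2.1 and 4.7, and the IFN-gamma signals were 3.7, 3.4, 2.2, 3.3 and 3.8 in the order 1a, 1b, 1c, 2 and 3. Control cultures 1 and 3 were high (normalised levels 5.21 and 5.19), whereas the other controls and all IFN-gamma cultures lay between 4.15 and 4.31. The difference was -0.35 (95% interval -1.003 to 0.31, adjusted p = 0.809).

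Pts, which encodes the enzyme acting after GTP cyclohydrolase 1, showed the widest spread between technical arrays. M77850_at gave 24.2, 20.3, 18.1, 12.6 and 20.9 in control cultures 1, 2, 3, 5 and 6. With IFN-gamma it gave 21.6, 77.3 and 114 on arrays 1a, 1b and 1c, 40.7 in culture 2 and 10.8 in culture 3. The IFN-gamma cultures therefore lay on both sides of the controls, and after normalisation the technical arrays of culture 1 spanned 2.18 log2 units. The level was 5.23 ± 0.392 (SD, n = 5) against 5.57 ± 0.904 (SD, n = 3). The difference was 0.34 (95% interval -0.53 to 1.20, adjusted p = 0.875).

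The sequence before the start of Pts, Gch1 and Irf1 is shown because the letters of interferon response motifs occur in it unevenly, while Irf1 is the gene with the clearest rise among the regulators described below. RefSeq (GRCr8) entries were matched for 4 of the 6 members (Gch1, Gchfr, Pts and Ass1) and for Irf1. Each line gives the 250 bases before the annotated start, 5' to 3' along the gene's own strand: chr8:59774266-59774515 (minus strand) for Pts, chr15:22917413-22917662 (minus strand) for Gch1 and chr10:38417685-38417934 (plus strand) for Irf1. Capitals mark matches, on either strand, to a gamma-activated site (TTCNNNGAA), the motif of interferon regulatory factors (GAAANNGAA) or a CCAAT box (CCAAT).
Pts: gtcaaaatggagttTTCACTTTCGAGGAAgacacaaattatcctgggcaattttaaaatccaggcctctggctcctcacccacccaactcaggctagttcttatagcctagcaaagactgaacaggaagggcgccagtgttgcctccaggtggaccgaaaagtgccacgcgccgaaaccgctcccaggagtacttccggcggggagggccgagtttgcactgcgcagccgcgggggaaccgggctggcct
Gch1: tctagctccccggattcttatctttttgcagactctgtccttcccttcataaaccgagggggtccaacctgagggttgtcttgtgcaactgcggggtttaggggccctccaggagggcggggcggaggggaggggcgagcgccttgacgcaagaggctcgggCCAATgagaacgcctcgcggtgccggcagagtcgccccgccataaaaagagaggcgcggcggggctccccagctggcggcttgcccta
Irf1: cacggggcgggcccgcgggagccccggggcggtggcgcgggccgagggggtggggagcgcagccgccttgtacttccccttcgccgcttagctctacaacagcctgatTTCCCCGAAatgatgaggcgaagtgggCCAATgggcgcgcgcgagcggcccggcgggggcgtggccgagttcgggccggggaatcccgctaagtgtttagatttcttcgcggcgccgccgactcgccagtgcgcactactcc
Irf1 held a gamma-activated site motif from base 142 to base 134 before the start, and a CCAAT box from base 115 to 111. Pts held an interferon regulatory factor motif (bases 236 to 228) that overlapped a gamma-activated site motif (bases 230 to 222). Gch1 held only a CCAAT box (bases 88 to 84) of the 3 motifs. Gchfr held a CCAAT box, and Ass1 held none of the 3. Among the 33469 windows of the same length in the table, 7.67% held the gamma-activated site motif, 8.12% the interferon regulatory factor motif and 34% the CCAAT box. A match of letters describes the window and is not a measured binding site.

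Ass1, which encodes the enzyme that joins citrulline and aspartate on the way back to arginine, was high in 1 treated culture only. X12459_at read 2.1, 2.3, 2.6, 4.1 and 3.2 in control cultures 1, 2, 3, 5 and 6. With IFN-gamma it read 19.4, 58.6 and 16.9 on arrays 1a, 1b and 1c, but 2.3 in culture 2 and 5.8 in culture 3. All 3 technical arrays of culture 1 thus lay above every control, at normalised levels of 5.40, 5.71 and 5.28 against at most 4.36. Cultures 2 and 3 (4.19 and 4.35) lay inside the control range. The difference of 0.42 (95% interval -0.20 to 1.03, adjusted p = 0.713) rested on that culture, since without it the value was 0.02 (adjusted p = 0.992).

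Arg1, the liver-type arginase that macrophages raise on exposure to interleukin 4, lay at the floor in both groups. J02720_at read between 1.2 and 6.4 in the controls and between 1.3 and 4 with IFN-gamma. The normalised levels were 4.27 ± 0.106 (SD, n = 5) and 4.20 ± 0.0249 (SD, n = 3), and the groups overlapped throughout. The difference was -0.07 (95% interval -0.40 to 0.25, adjusted p = 0.949), with little room below the controls for a fall to be seen.

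Technical spread was of the same order as the differences. At 9 of the 12 probe sets the range over arrays 1a, 1b and 1c, which carried RNA of the same culture, was at least as large as the difference between the groups. The SD over these 3 arrays had a median of 0.261 over the 12 probe sets, beside 0.328 for the SD over the 5 control cultures. Over all tested probe sets the corresponding medians were 0.308 and 0.400. The upper end of the 95% interval lay below a 2-fold increase at 7 of the 12 probe sets, on the compressed scale used here. At the other 5 it reached 2.52-fold for Nos2 U03699complete_seq_at, 2.41-fold for Gch1 M58364_at, 2.30-fold for Pts, 2.28-fold for Nos2 AF006619_s_at and 2.05-fold for Ass1, so increases of that size lay within the intervals.

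**Figure D3:**
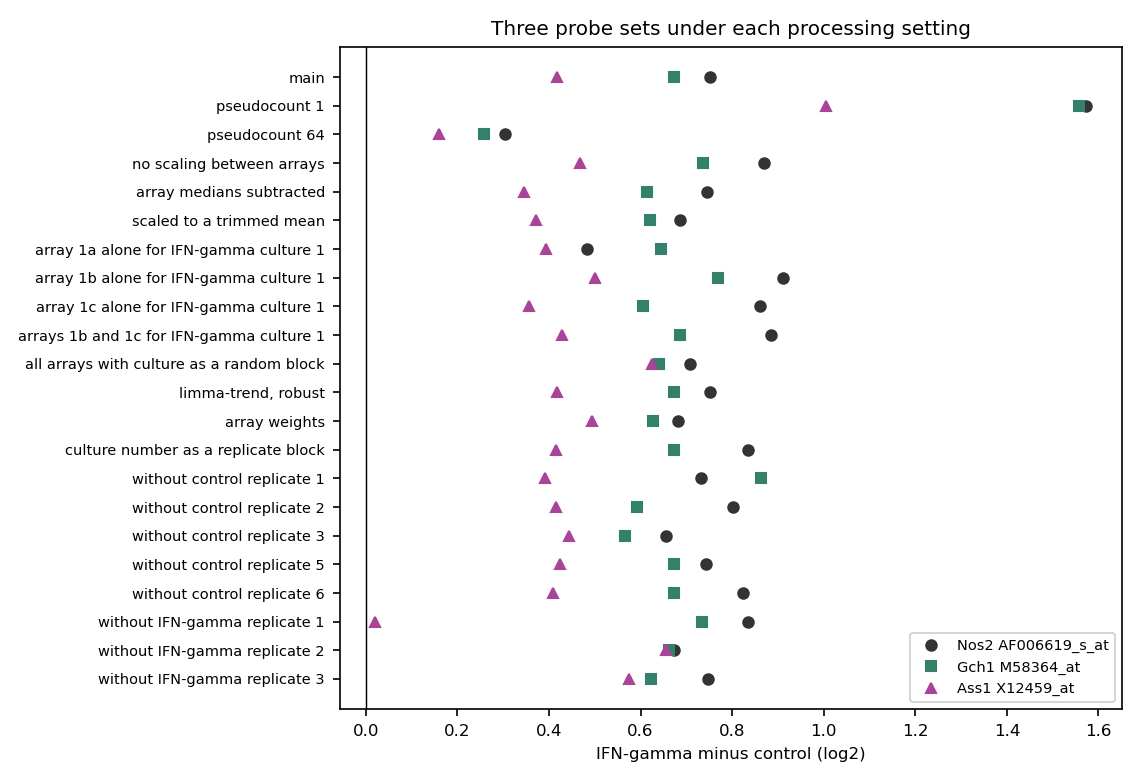
Difference between IFN-gamma and control cultures (log2) of 1 probe set each of Nos2, Gch1 and Ass1 under the main setting and 21 alternatives. All values are above 0; those of Nos2 lie between 0.30 and 1.57, and Ass1 falls to 0.02 without IFN-gamma culture 1.

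The genes around this pathway were counted over 9 lists by the brightest probe set of each gene. Of 95 listed genes 57 were measured, 2 rose and 3 fell, where 0.887% of all genes rose and 0.697% fell. The median difference over the 57 was 0.15, beside -0.02 over all genes.

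Among nitric oxide synthases and their regulators, 0 of 7 measured genes rose and 1 fell. Ddah1, whose product degrades the methylated arginines that inhibit nitric oxide synthases, fell from 5.73 ± 0.175 (SD, n = 5) to 4.92 ± 0.0646 (SD, n = 3). It was 1.75-fold lower (limma adjusted p = 0.0453), with all 3 IFN-gamma cultures below the controls, but its second probe set had a difference of -0.10. It did not pass in 16 of the 22 alternative settings. Nos3, the endothelial synthase gene, had a difference of 0.47 by the brightest of its 6 probe sets (adjusted p = 0.727), and Nos1, the neuronal one, 0.28 by the brightest of 3 (adjusted p = 0.884). Hsp90ab1, a chaperone of nitric oxide synthases, did not pass over all probe sets (0.82, adjusted p = 0.116), but passed in 2 of 22 alternative settings. Its 4 probe sets, with differences of 0.82, 0.66, 1.12 and 1.07, each had every IFN-gamma culture above every control, which 4.28% of all probe sets show.

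Of the genes for making, recycling and using tetrahydrobiopterin, 0 of 4 measured ones passed. Spr, the sepiapterin reductase gene of the last synthetic step, stood at 5.98 ± 0.282 (SD, n = 5) and 6.16 ± 0.127 (SD, n = 3), a difference of 0.17 (adjusted p = 0.875). Qdpr, whose enzyme regenerates the cofactor, had 0.08 (adjusted p = 0.973), and the tyrosine hydroxylase gene Th 0.29 (adjusted p = 0.925).

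In the arginine list 0 of 11 measured genes rose and 1 fell. Gatm, which uses arginine in the first step of creatine synthesis, fell from 5.38 ± 0.147 (SD, n = 5) to 4.36 ± 0.202 (SD, n = 3), 2.03-fold (limma adjusted p = 0.0168). It missed the threshold in 6 of 21 alternatives, including unscaled arrays and the fits that left out treated culture 2 or 3. The urea cycle gene Otc (-0.47, adjusted p = 0.517) and the ornithine aminotransferase gene Oat (-0.45, adjusted p = 0.629) did not pass. Asl, which completes arginine synthesis after Ass1, had 0.33 (adjusted p = 0.896) by the brighter of its probe sets and -0.02 by the other. Slc7a1, the cationic amino acid transporter that imports arginine, had 0.27 (adjusted p = 0.811) at the brightest of its 3 probe sets, beside 0.70 (unadjusted p = 0.0129, limma adjusted p = 0.253) and -0.12 (adjusted p = 0.929) at the other two. The second arginase gene Arg2 had 0.05 (adjusted p = 0.980).

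Of 5 measured genes of ornithine and polyamine metabolism 0 passed. The antizyme gene Oaz2, which restrains polyamine synthesis, came nearest with -0.62 (adjusted p = 0.0986), followed by the antizyme inhibitor gene Azin1 with 0.62 (adjusted p = 0.14). Nor did any of 5 genes of nitric oxide targets and cyclic GMP pass, where Gucy1b2 had 0.41 (adjusted p = 0.658). In the phagocyte NADPH oxidase list, Cyba stood at 9.33 in both groups (-0.01, adjusted p = 0.998) and Rac1 had 0.37 (adjusted p = 0.662). Among 4 alternative activation genes, Il4r had 0.64 (adjusted p = 0.288) and 0 passed.

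**Figure D4:**
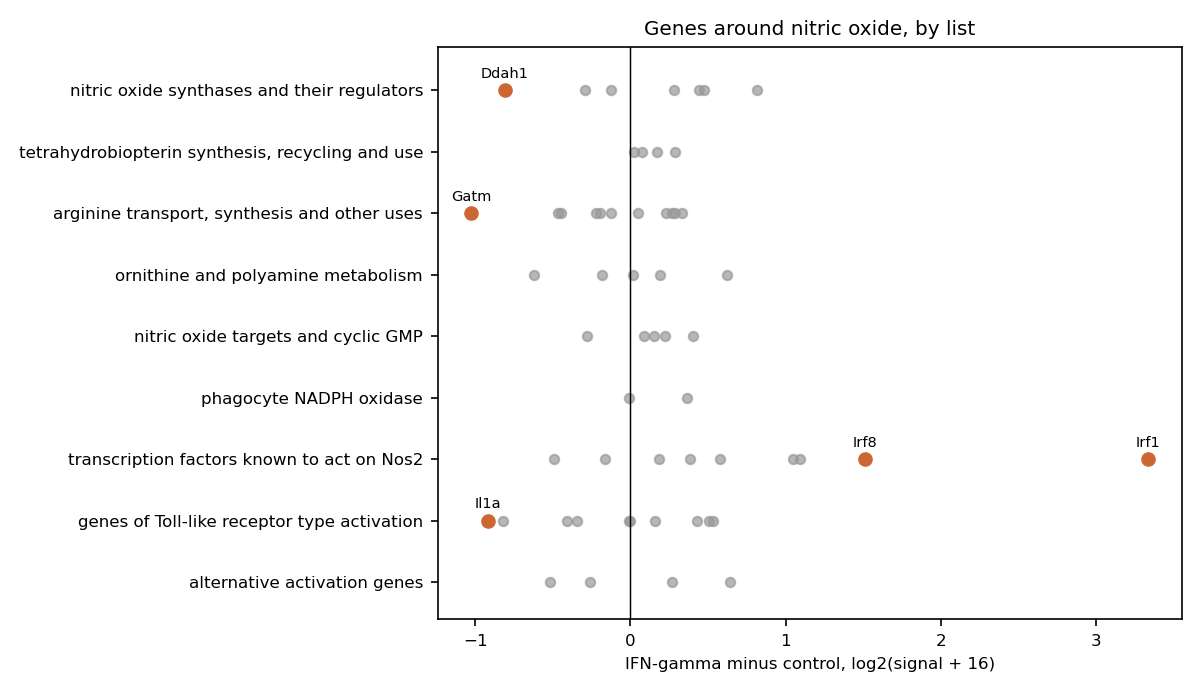
Difference between IFN-gamma and control cultures in normalised log2(signal + 16) for each measured gene of the 9 lists, by its brightest probe set; orange points with names passed the threshold and grey points did not. Irf1 and Irf8 lie to the right, and Ddah1, Gatm and Il1a to the left.

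Transcription factors known to act on Nos2 were the list in which genes rose: 2 of 9 measured genes rose and 0 fell, with a median difference of 0.58. The 9 include Nfkbia, which encodes an inhibitor of NF-kB and not a transcription factor. Irf1, an interferon-induced activator that Nos2 induction requires in mouse macrophages, rose 10.1-fold (limma adjusted p = 1.08e-05). Its second probe set rose 5.82-fold (adjusted p = 0.00254). Irf8, a partner of Irf1, rose 2.85-fold (adjusted p = 0.00112). Cebpb, which encodes a factor induced during macrophage activation, had 1.09 and an adjusted p of 0.0501, and passed in 10 of 22 other settings, while its second probe set had 0.048 (adjusted p = 0.992). Nfkb1, the gene of an NF-kB subunit precursor, had 1.05 by its single probe set (adjusted p = 0.178).

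Of the genes of Toll-like receptor type activation, which macrophages raise with Nos2 when given microbial products, 10 were measured. Past the threshold 0 were higher and 1 was lower. Il1a was 1.89-fold lower (limma adjusted p = 0.0473) but failed the threshold in 16 of 22 alternatives. Il1b had -0.82 (adjusted p = 0.0724) and Il6 0.51 (adjusted p = 0.423).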

How the data were processed

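RNA from 8 cultures was measured on 10 Affymetrix rat expression arrays. The deposited values are linear signal intensities, 1 for every probe set on each array. MAS5 and GCRMA are both listed in the submitters' processing notes, without a role, and how the authors otherwise made these intensities was not given in the sources used here. Array medians differed, so log2(signal + 16) values were quantile normalised over the 10 arrays, and arrays 1a, 1b and 1c were averaged. Of 8799 probe sets 59 array controls were left out. The groups were compared with limma 3.58.1 under R 4.3.3 (two-sided, 5 against 3 cultures, Benjamini-Hochberg over 8740 probe sets, threshold 0.05). The step was tested on simulated data with changes placed only in probe sets whose mean level was above the median. That test does not cover changes in dimmer probe sets. Single array values were compared by exact permutation over 56 assignments (smallest p 0.0179). Symbols came from the platform annotation. Promoter motifs were searched as plain letters; the interferon regulatory factor motif was shortened by 1 base after a first search had matched Pts alone. All member probe sets are reported; of the other lists every gene past the threshold is named and, in lists with 0 or 1 such gene, up to 3 with the smallest p. Arg2, Asl, Cebpb, Col1a1, Glul, Nfkb1, Nos1, Slc7a1 and Syt1 were named after their values were seen. So were Col1a2, Col3a1, Dcn, Gap43, Lum, Nefl, Nefm and Snap25. Genes with a pattern most like a member were to be named where the member's mean level was at least 6, which 0 members reached. Members and lists were chosen with earlier results of these data known. Precision is limited by the number of cultures, 5 against 3. Culture numbers 1, 2 and 3 occur in both groups, but no label ties them to a shared brain or day, so the fit has no block.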

Additional observations from a re-analysis of the deposited data

How the results depend on the processing

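Under 22 alternatives, 21 of them planned, 0 member probe sets passed in either direction. The lowest adjusted p of any member was 0.0561 (Nos2 AF006619_s_at with array 1b alone for IFN-gamma culture 1). The filter on low values left only 3 of the 12 probe sets, so the other 9 have 21 alternatives. Differences near 0 changed sign. Gch1 E03424cds_s_at was -0.0348 with scaling to a trimmed mean, -0.0576 with array 1a alone and -0.113 with the culture number as a replicate block. Gch1 rc_AI043643_at was -0.0106 with array medians subtracted, -0.0476 with the trimmed mean, -0.0340 with array 1b alone and -0.0162 with all arrays and culture as a random block. Gch1 rc_AA943102_s_at was -0.0317 with array 1b alone and Nos2 S71597_s_at 0.0280 with array 1a alone. Leaving out 1 culture at a time gave -0.28 to 0.17 for Nos2 S71597_s_at, -0.21 to 0.28 for Gch1 E03424cds_s_at, -0.10 to 0.12 for Gch1 rc_AI043643_at and -0.0631 to 0.828 for Pts. The cause was not tested.

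Over the whole array, 81 probe sets were higher and 53 lower. The counts were 42 and 25 with a pseudocount of 1, 38 and 1 with no scaling, 100 and 27 with array medians subtracted, and 124 and 73 with all arrays and culture as a random block. Without IFN-gamma culture 1, 2 or 3 they were 47 and 28, 51 and 25, or 47 and 21, and without control culture 6 they were 58 and 35. Same-numbered cultures had correlations over probe sets of -0.05, -0.002 and 0.01, and differently numbered ones had -0.08 to 0.09. With deviations taken from a mean of 3 cultures per group, this check cannot tell whether the numbers mark pairs. The main fit has no block because no label ties the numbers to a shared brain or day. With the replicate block over 6 cultures 17 probe sets were higher and 5 lower, and the calls of Irf8, Gatm, Ddah1 and Il1a were lost, as was that of Glul. Dim signals, mostly below 50, and the number of cultures limit what can be seen for these genes.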

Other observations

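The Ass1 pattern was looked for across the array after its values were seen. All 3 technical arrays of IFN-gamma culture 1 lay above the other 7 arrays at 152 of 8740 probe sets (1.74%) and below them at 156. By the gap between the lowest of the 3 arrays and the highest of the other 7, Ass1 (0.92 log2 units) ranked second of all probe sets. The named genes with a gap of at least 0.5 were Plaat3 (0.63), Slc12a2 (0.62), Ezr (0.56) and Serping1 (0.52). Serping1, the gene of the C1 inhibitor, stood at 8.27 in culture 1, and at 7.40 and 7.71 in cultures 2 and 3, all above the highest control level of 6.26. Ass1 was at the control level in the other treated cultures, and so was Slc12a2, a sodium, potassium and chloride cotransporter gene (5.22 in culture 1, 4.31 and 4.37 in cultures 2 and 3, 4.47 in the highest control). Plaat3 likewise stood at 6.43 in culture 1, and at 5.06 and 5.49 in cultures 2 and 3, below the highest control at 5.62. Ezr, which encodes the membrane-cytoskeleton linker ezrin, was above the controls in all 3 treated cultures (6.85, 6.22 and 6.15, against at most 5.83). Why culture 1 differed was not tested.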
